A study of Homo sapiens with 3 samples.

Results

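The secreted antagonists of the WNT pathway were measured in CAL27 cells, a line of oral squamous cell carcinoma (OSCC), and in 2 drug-resistant lines derived from it. The genes were DKK1, DKK2, DKK3, DKK4, SFRP1, SFRP2, SFRP4, SFRP5, WIF1 and FRZB, a list of the DKK and SFRP families and WIF1 that was put together because DKK3 moved in opposite directions in the resistant lines. All 10 genes were found among the 19220 genes of the count table by their symbols. The parental CAL27 cells, labelled WT, grew without drug. CAL27/5FU cells, labelled as resistant to 5-fluorouracil (5FU), were kept in 10 μM 5FU, and CAL27/OXA cells, labelled as resistant to oxaliplatin (OXA), were kept in 10 μM OXA. The 3 lines shared the same serum-containing medium, and the study aimed to find genes that differ between parental and resistant cells. CAL27/5FU cells had been selected by rising doses of the drug, and whether either resistant line is a single clone is not stated in the sources used here.

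WNT ligands bind a frizzled receptor together with LRP5 or LRP6, which keeps β-catenin from being degraded. Secreted antagonists act on this step from outside the cell. The SFRP proteins, FRZB among them, and WIF1 bind WNT ligands themselves, whereas DKK1, DKK2 and DKK4 bind LRP5 and LRP6. DKK3 is the divergent member of the DKK family, and it is known as a gene with reduced expression in many carcinomas. DKK1 is itself a target of β-catenin and so belongs to the feedback of the pathway.

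For each line 1 RNA-seq library was analysed. Differences thus lack a check by replicates, and no test across samples was made. The libraries held 37297713 to 43455488 counts. Counts were scaled by TMM factors to library size (CPM). Testing was limited to the 13676 genes that averaged at least 10 counts, and log2 ratios were formed after adding a prior count of 2. Folds given as such and all intervals were formed from the scaled counts without it. A gene past 2-fold was called higher or lower. The 95% intervals are exact Clopper-Pearson intervals on the pair of counts (exact Poisson intervals for a single level) and cover counting error only. Ratios to CAL27 in both resistant lines rest on the same CAL27 library. All 10 markers of squamous epithelium that were looked at had more than 3 counts in every library, and their summed FPKM was 6028 in CAL27 cells, 1389 in CAL27/5FU cells and 1611 in CAL27/OXA cells. Of these, 7 were lower in CAL27/5FU and 6 in CAL27/OXA, with 0 higher. Of all tested genes, 8.46% were higher and 6.72% lower in CAL27/5FU, and 6.54% and 9.28% in CAL27/OXA. DSC3 (log2 ratios of -0.89 and -0.50), CDH1 (-0.14 and -0.16) and EPCAM (0.39 and 0.03) were within 2-fold in both. TP63 was within 2-fold in CAL27/OXA (0.13). Markers of other cell types were present in part. In the order CAL27, CAL27/5FU and CAL27/OXA, the summed FPKM of the 8 fibroblast markers was 7.51, 11.9 and 14.9, that of the 5 leukocyte markers 9.74, 22.0 and 5.04, and that of the 4 endothelial markers 0.437, 2.29 and 1.06. Of the fibroblast markers COL3A1 and THY1 had 0 counts in every library, whereas 4 of the 8 were tested and 2 of these were higher in each resistant line. These were LUM, with 120, 414 and 877 counts (log2 ratios to CAL27 of 1.76 and 2.66), and COL1A2, with 90, 300 and 212 counts (1.71 and 1.03). COL1A1 had 1387, 1068 and 1050 counts. The endothelial marker CDH5 had 43, 338 and 163 counts (2.91 and 1.69). The other tested endothelial markers had lower values in both resistant lines. VWF had 44, 19 and 29 counts (-1.14 and -0.75), and PECAM1 had 13, 6 and 11 (-0.92 and -0.37). Of the leukocyte markers PTPRC had 2, 0 and 0 counts, and CD14, with 637, 1290 and 341, was the only one tested. The part of these markers in the results was not tested. In RNA of whole cultures, fewer cells that express a gene and less of its RNA per cell cannot be told apart.

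Only DKK1 and DKK3 were present at more than 1 CPM in any library. Of the 10 antagonists, 3 passed the filter on low counts (DKK1, DKK3 and FRZB) and 7 did not. DKK2, DKK4, SFRP2, SFRP4 and WIF1 had 0 counts in all 3 libraries. The 95% Poisson interval of 0 counts ends at 0.0830 to 0.0947 CPM, depending on the library. The limit of 3 counts that is used as a floor corresponds to 0.0675 to 0.0770 CPM. SFRP5 had 2, 1 and 2 counts (CAL27, CAL27/5FU and CAL27/OXA, an order kept below where lines are not named). SFRP1 had 10, 0 and 2 counts, a mean of 4. FRZB, with 10, 14 and 23 counts and a mean of 15.7, was the tested antagonist with the fewest counts.

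**Figure D1:**
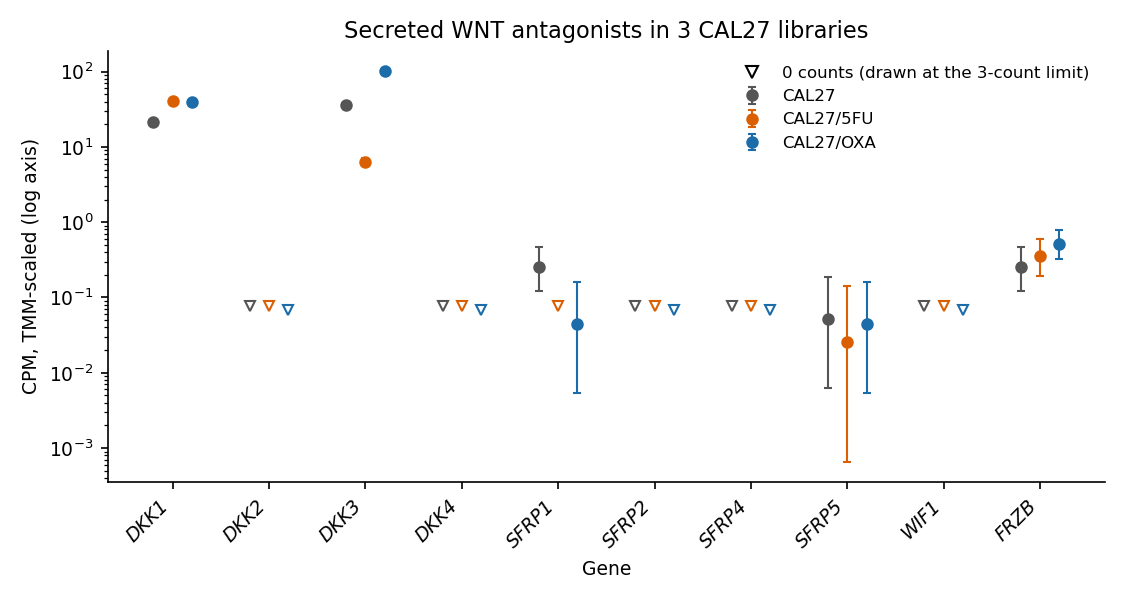
Level of each antagonist gene (x axis) in CPM on a log axis, with 1 point per library and bars for the exact 95% Poisson interval. Open triangles mark 0 counts and are drawn at the 3-count limit. DKK1 and DKK3 lie between 6.26 and 101 CPM, and the other 8 genes lie below 1 CPM.

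DKK3 was lower in CAL27/5FU cells and higher in CAL27/OXA cells than in CAL27 cells. It had 1391 counts in CAL27 cells, 245 in CAL27/5FU cells and 4485 in CAL27/OXA cells, which is 35.7, 6.26 and 101 CPM. The order CAL27/OXA, CAL27, CAL27/5FU holds beyond counting error, as the 3 intervals (98.0 to 104, 33.9 to 37.6 and 5.50 to 7.09 CPM) do not overlap. The log2 ratio to CAL27 was -2.50 in CAL27/5FU (95% interval -2.71 to -2.32), a 5.70-fold lower level (4.98 to 6.56). In CAL27/OXA the log2 ratio to CAL27 was 1.5 (1.41 to 1.59), a 2.83-fold higher level (2.66 to 3.0). Set directly against each other, CAL27/OXA cells had 16.1-fold more DKK3 than CAL27/5FU cells (14.2 to 18.4), a log2 ratio of 4.0. These values led to the choice of the genes and are given as a description.

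The place of DKK3 in the whole transcriptome differed between the lines. It follows from the same counts that led to the choice of the genes and is given as a description. By FPKM, which divides by gene length, DKK3 stood at 12.2 in CAL27 cells, 2.42 in CAL27/5FU cells and 38.0 in CAL27/OXA cells. It exceeded 71.0% of the listed genes in the CAL27 library, 46.5% in that of CAL27/5FU and 88.2% in that of CAL27/OXA. By its log2 ratio among the 13676 tested genes, DKK3 ranked 192 from the lowest in CAL27/5FU against CAL27, 493 from the highest in CAL27/OXA against CAL27 and 37 from the highest in CAL27/OXA against CAL27/5FU.

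DKK1, the LRP5 and LRP6 antagonist, had higher values in both resistant lines, just short of 2-fold. It had 831 counts in CAL27 cells, 1606 in CAL27/5FU cells and 1764 in CAL27/OXA cells, which is 21.3, 41.0 and 39.7 CPM. Its log2 ratio to CAL27 was 0.94 in CAL27/5FU (0.82 to 1.07) and 0.89 in CAL27/OXA (0.78 to 1.02), and both intervals include 2-fold. Scaling by total counts moved these ratios to 1.11 and 1.03, past 2-fold. Between the resistant lines DKK1 did not differ beyond counting error, with a log2 ratio of -0.05 in CAL27/OXA against CAL27/5FU and an interval of -0.15 to 0.05. DKK1 overlaps PRKG1-AS1 on the opposite strand in GENCODE 29, and the strandedness of the counting is not stated, so reads of the pair may not be told apart.

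**Figure D2:**
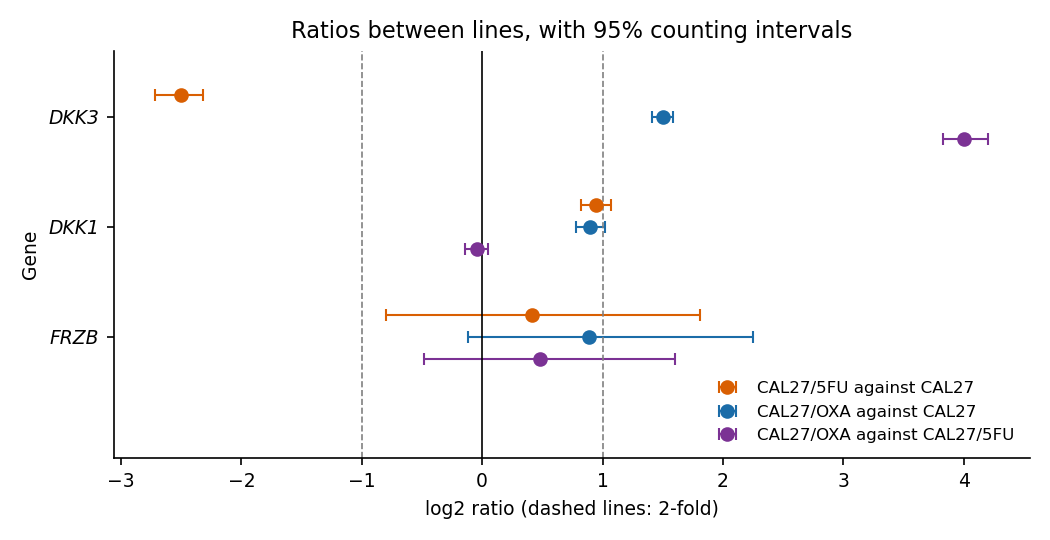
Log2 ratios (x axis) of DKK3, DKK1 and FRZB (y axis) in the 3 comparisons between libraries, with bars for the 95% counting intervals and dashed lines at 2-fold. DKK3 lies at -2.50 and 1.5 against CAL27, whereas DKK1 lies at 0.94 and 0.89.

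FRZB, a secreted frizzled-related protein that binds WNT ligands, was low in every library. Its 10, 14 and 23 counts are 0.257, 0.358 and 0.518 CPM. The log2 ratio to CAL27 was 0.41 in CAL27/5FU (-0.80 to 1.81) and 0.89 in CAL27/OXA (-0.12 to 2.25). Both intervals include 0, so a difference of FRZB was not detectable at this depth. SFRP1, another WNT-binding antagonist, was under the filter. The CAL27 library held 10 counts of it and that of CAL27/5FU 0. Set against the floor of 3 counts in the CAL27/5FU library this is at least 3.35-fold lower, a value that leaves out the counting error of the 10 counts, and the interval that includes it starts at 2.25-fold. With 2 counts in CAL27/OXA the ratio of the scaled counts was 5.70-fold lower than in CAL27 (1.22 to 53.5). This value rests on few counts, and with the prior count of 2 the log2 ratio was -1.70. Across the alternatives it ran from -2.23 with a prior count of 0.5 to -0.06 with FPKM and a pseudocount of 1.

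Counted over the list, 1 of the 3 tested antagonists was past 2-fold in each comparison, and it was DKK3 every time. In CAL27/5FU against CAL27, 0 were higher and 1 was lower, where 8.46% of all tested genes were called higher and 6.72% lower. In CAL27/OXA against CAL27, 1 was higher and 0 were lower, beside 6.54% and 9.28% of all tested genes. In CAL27/OXA against CAL27/5FU, 1 was higher and 0 were lower, beside 4.18% and 8.38%. Since DKK3 led to the choice of the list, nothing is read from these counts. The median log2 ratio of the 3 tested antagonists was 0.41, 0.89 and 0.48 in the same order of comparisons, and that of all tested genes was -0.0035, 0.0055 and 0.0079.

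The make-up of the antagonist transcripts therefore differed between the 3 lines. This largely restates the DKK3 values that led to the choice of the genes. The summed FPKM of the 10 genes was 23.4 in CAL27 cells, 26.4 in CAL27/5FU cells and 60.7 in CAL27/OXA cells. DKK3 made up 52.3% of this sum in CAL27 cells, 9.15% in CAL27/5FU cells and 62.6% in CAL27/OXA cells. DKK1 made up 47.0%, 90.3% and 37.1%, and the other 8 genes together held 0.150 to 0.226 FPKM. Per length, DKK3 thus stood at 1.11 times DKK1 in CAL27, at 0.101 times in CAL27/5FU and at 1.69 times in CAL27/OXA. These proportions depend on the lengths used. The deposited FPKM values imply a length of 2719 nt for DKK3 and 1805 nt for DKK1, whereas all exons of GENCODE 29 together measure 5059 and 2206 nt. With the GENCODE lengths the ratio of DKK3 to DKK1 became 0.730, 0.0665 and 1.11, so that DKK3 stood below DKK1 in CAL27 as well.

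**Figure D3:**
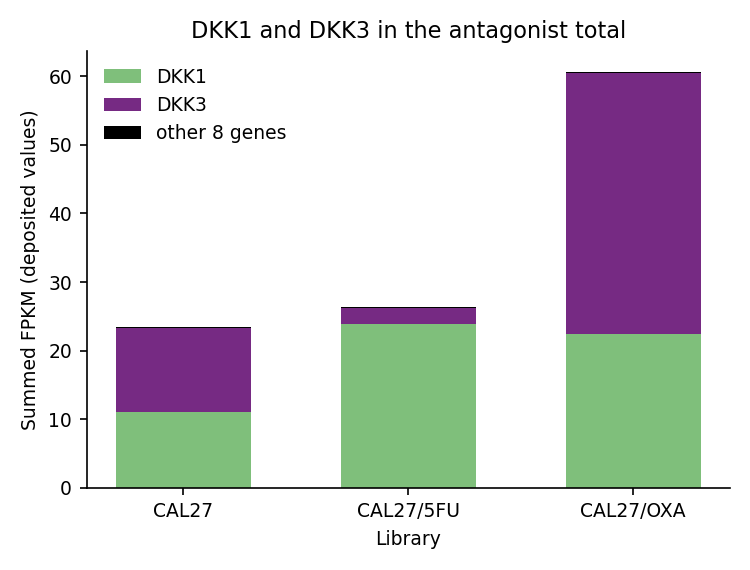
Summed deposited FPKM (y axis, from 0) of the 10 antagonist genes in each library (x axis), split into DKK1, DKK3 and the other 8 genes. DKK1 makes up most of the bar in CAL27/5FU (90.3%) and DKK3 most of it in CAL27/OXA (62.6%).

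DKK3 (ENSG00000050165.17) is annotated at chr11:11963106-12009769 in GRCh38 (GENCODE 29), on the minus strand, and overlaps 0 other annotated genes. The change of DKK3 was not shared by the genes around it. With TMM scaling, none of the 5 nearest tested genes on each side was past 2-fold in any of the 3 comparisons, and their median log2 ratio to CAL27 was -0.06 in CAL27/5FU (range -0.57 to 0.95) and 0.10 in CAL27/OXA (-0.58 to 0.91). In CAL27/OXA against CAL27/5FU the median of these 10 neighbours was 0.03 (-0.65 to 0.54), beside 4.0 for DKK3 itself. USP47, a deubiquitinase gene next to DKK3, had 3027, 2749 and 3282 counts in CAL27, CAL27/5FU and CAL27/OXA. MICAL2, an actin-oxidising enzyme and the nearest tested gene on the other side, had 1175, 2277 and 2526 counts, with log2 ratios to CAL27 of 0.95 and 0.91, which became 1.12 and 1.05 with total counts and so passed 2-fold. The other 9 neighbours were within 2-fold under that scaling too.

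**Figure D4:**
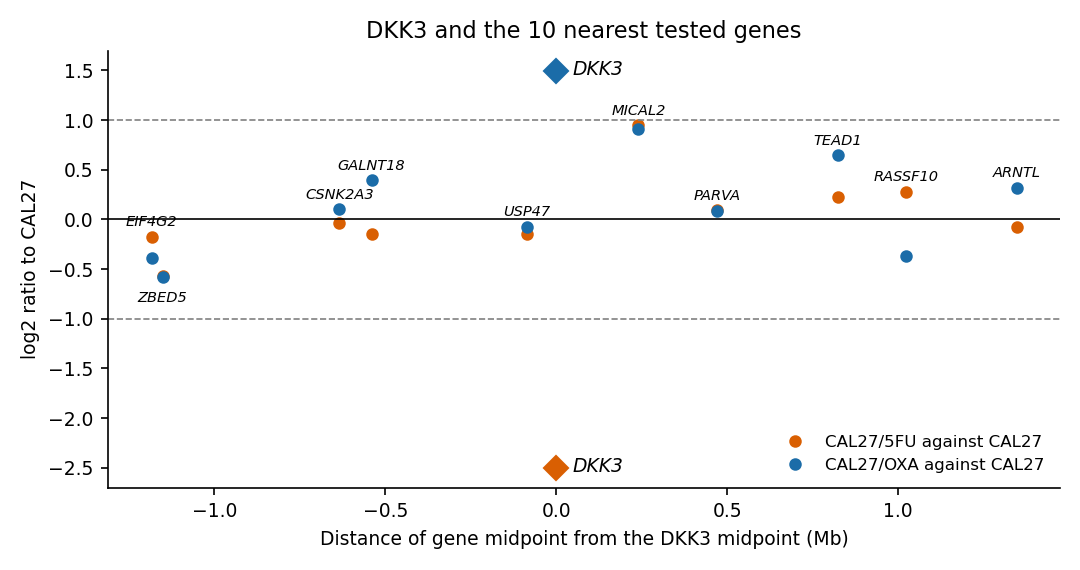
Log2 ratio to CAL27 (y axis) of DKK3 (diamonds) and its 10 nearest tested neighbours (circles) against the distance of gene midpoints in Mb (x axis), in orange for CAL27/5FU and in blue for CAL27/OXA. The circles lie between -0.58 and 0.95, and the diamonds lie outside this range at -2.50 and 1.5.

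Starts of the antagonist genes were read from the RefSeq promoter table (GRCh38.p14), which matched 6 of the 10 genes. DKK2, DKK3, DKK4 and SFRP1 were not matched. In GENCODE 29 the 250 bases before this start lay outside the gene for DKK1 and SFRP5 only. They fell wholly within the gene for SFRP4, WIF1 and FRZB, with 98, 250 and 250 bases in its exons, and in part for SFRP2 (37 bases), so for these 4 genes they are not all upstream sequence. The 250 bases are shown for DKK1, the matched gene with the highest level, and for SFRP5, which had at most 2 counts in any library. Those of DKK1 overlap an exon of PRKG1-AS1 on the opposite strand. Capitals mark CTTTGA or its reverse complement TCAAAG, a form of the core of the sequence that TCF/LEF factors bind when they act with β-catenin. Forms with another last base, such as CTTTGT, were not marked or counted.
DKK1 (chr10:52314031-52314280, plus strand): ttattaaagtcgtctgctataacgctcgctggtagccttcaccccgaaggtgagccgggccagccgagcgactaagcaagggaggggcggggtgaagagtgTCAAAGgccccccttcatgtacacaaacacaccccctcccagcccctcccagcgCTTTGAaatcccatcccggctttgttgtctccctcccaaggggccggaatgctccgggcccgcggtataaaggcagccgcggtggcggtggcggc
SFRP5 (chr10:97772000-97772249, minus strand): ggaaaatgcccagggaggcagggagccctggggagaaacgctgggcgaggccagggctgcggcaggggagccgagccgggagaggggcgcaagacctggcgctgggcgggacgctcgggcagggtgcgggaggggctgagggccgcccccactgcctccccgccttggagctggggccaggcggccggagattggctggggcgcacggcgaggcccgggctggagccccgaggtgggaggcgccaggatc
DKK1 held 2 matches, with their first bases 149 and 95 bases before the start, and the other 5 matched genes held 0. Of all 35116 promoters of this length, 11.2% held at least 1 match on either strand and 0.977% at least 2. The form CTTTGA was chosen with earlier results known, so these shares are given as a description. The longer form CTTTGAT, which contains CTTTGA, or its reverse complement ATCAAAG was found in 0 of the 6 and in 2.26% of all promoters. CpG dinucleotides numbered 18 in DKK1 and 21 in SFRP5, where 63.2% and 69.8% of all promoters had fewer. SFRP2 and FRZB had 11, the median of all promoters, SFRP4 had 17 and WIF1 had 27. A match describes the letters and does not show that a factor binds there.

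The receptors that DKK proteins bind were expressed in all 3 libraries. Among LRP5, LRP6, KREMEN1, KREMEN2 and CKAP4, 0 of 5 were past 2-fold in CAL27/5FU against CAL27, and 1 was lower in CAL27/OXA. This was KREMEN2, a receptor that removes LRP6 from the surface together with DKK1, with 2395 counts in CAL27 cells, 1608 in CAL27/5FU cells and 1018 in CAL27/OXA cells. Its log2 ratio to CAL27 was -1.42 in CAL27/OXA (-1.53 to -1.32) and -0.58 in CAL27/5FU. KREMEN1, of the same function, had 3162, 1874 and 2810 counts. LRP6 had 1432, 1993 and 1743 counts, and CKAP4, a further receptor of DKK1, had 8799, 13162 and 12409. The median log2 ratio of these 5 genes was 0.19 in CAL27/5FU and -0.29 in CAL27/OXA. In CAL27/OXA against CAL27/5FU, 0 of 5 were past 2-fold. Beside this, 8.46% of all tested genes were higher and 6.72% lower in CAL27/5FU against CAL27. The shares were 6.54% and 9.28% in CAL27/OXA against CAL27, and 4.18% and 8.38% in CAL27/OXA against CAL27/5FU.

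Other genes that restrain WNT signalling outside the cell or at its surface included IGFBP4 and TRABD2A, which were higher in CAL27/5FU, and TRABD2B, which was lower there. Of 13 such genes, 6 passed the filter, and 3 of these were higher and 1 was lower in CAL27/5FU, against 1 higher and 0 lower in CAL27/OXA. With FPKM values and a pseudocount of 1 these counts were 2 and 0 in CAL27/5FU and 1 and 0 in CAL27/OXA, and with total counts 2 were higher in CAL27/OXA. With TMM scaling, 8.46% of all tested genes were higher and 6.72% lower in CAL27/5FU, and 6.54% and 9.28% in CAL27/OXA. IGFBP4, a secreted binding protein of insulin-like growth factors that also interferes with WNT receptors, had 255 counts in CAL27 cells, 2565 in CAL27/5FU cells and 1012 in CAL27/OXA cells. Its log2 ratio to CAL27 was 3.31 (3.14 to 3.51) in CAL27/5FU and 1.79 (1.60 to 2.0) in CAL27/OXA. TRABD2A, a membrane-bound protease that cleaves WNT ligands, had 328, 875 and 534 counts, with log2 ratios of 1.40 (1.22 to 1.60) and 0.51. ZNRF3, a ubiquitin ligase that removes frizzled receptors, had 452, 945 and 830 counts and a log2 ratio of 1.05 (0.89 to 1.22) in CAL27/5FU, or 0.88 with FPKM and a pseudocount of 1. TRABD2B, the relative of TRABD2A, had 19, 6 and 43 counts, low in CAL27/5FU and high in CAL27/OXA as for DKK3. Its log2 ratio was -1.41 in CAL27/5FU (-3.28 to -0.29), 0.92 in CAL27/OXA (0.18 to 1.85) and 2.33 between the resistant lines (1.42 to 4.18). With FPKM values and a pseudocount of 0.1 or 1, TRABD2B was no longer past 2-fold in any comparison. Between the resistant lines 1 of the 6 genes was higher (TRABD2B) and 1 lower (IGFBP4, with -1.52) in CAL27/OXA. In that comparison 4.18% of all tested genes were higher and 8.38% lower. TPBG and RNF43, which also dampen the pathway at the membrane, were within 2-fold in all comparisons. NOTUM, SOST, SOSTDC1, APCDD1 and DKKL1 had at most 8 counts in any library, and CER1 and DRAXIN had 0 counts in all 3.

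Target and feedback genes of β-catenin, a group to which DKK1 also belongs, were mostly higher in both resistant lines. The list includes CCND1 and MYC as targets and is not limited to feedback genes. Of 10 such genes other than DKK1, 8 were tested, with 6 higher and 1 lower in CAL27/5FU and 6 higher and 0 lower in CAL27/OXA. Their median log2 ratio was 1.45 and 1.65. Of all tested genes, 8.46% were higher and 6.72% lower in CAL27/5FU, and 6.54% and 9.28% in CAL27/OXA. The 6 higher genes were NKD2, LEF1, TCF7, SP5, TNFRSF19 and CCND1 in both lines, and with FPKM values and a pseudocount of 1 they numbered 4 in each line. SP5, a transcription factor induced by WNT ligands, had 39, 171 and 180 counts, with log2 ratios of 2.07 (1.62 to 2.67) and 1.97 (1.51 to 2.56). LEF1, a partner of β-catenin on DNA, had 57, 327 and 357 counts and a log2 ratio of 2.42 (2.05 to 2.89) in CAL27/OXA. DKK1, at 0.94 (0.82 to 1.07) and 0.89 (0.78 to 1.02), had lower values than these 6 genes in both lines. Its intervals overlap those of NKD2 in both lines (0.81 to 1.51 and 0.78 to 1.47). The interval of TNFRSF19 in CAL27/5FU (0.60 to 2.50) overlaps that of DKK1 too. MYC, also in the list, was at -0.46 and -0.24. The listed genes under the filter were AXIN2, with 0, 13 and 2 counts, and LGR5, with 0, 1 and 0. NKD1, an intracellular inhibitor, had 32, 15 and 39 counts and a log2 ratio of -1.01 in CAL27/5FU (-2.09 to -0.17), which was within 2-fold under scaling by total counts or upper quartile, with a prior count of 5 and with both FPKM settings.

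**Figure D5:**
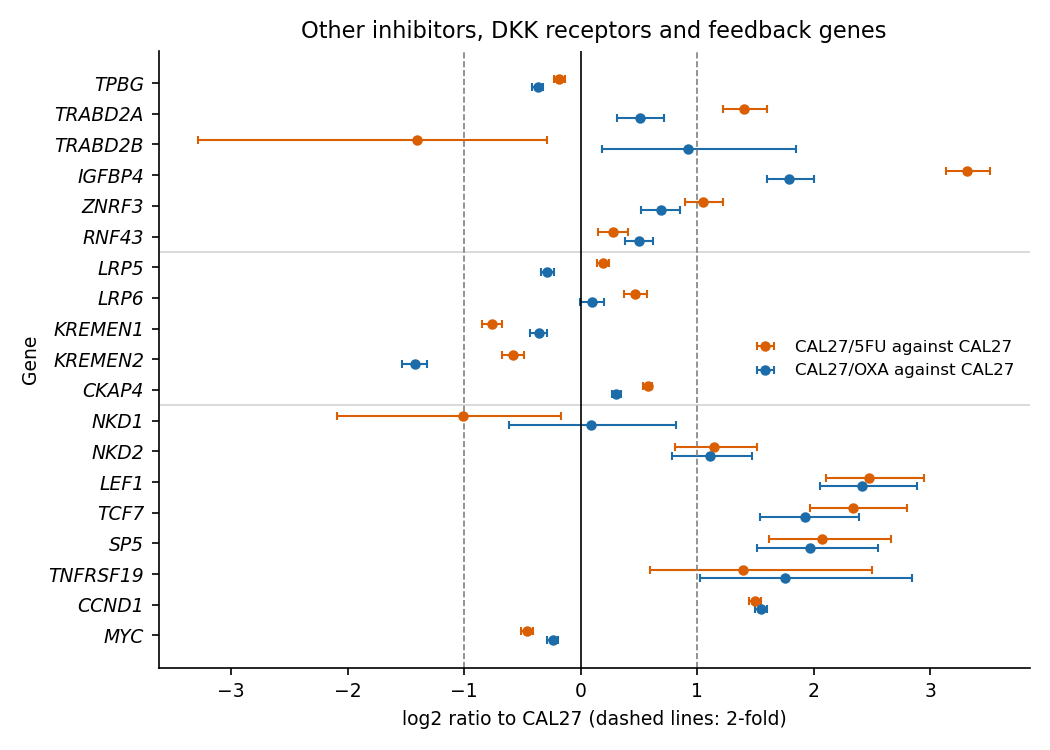
Log2 ratios to CAL27 (x axis) with 95% counting intervals for the tested genes among other WNT inhibitors (top block), DKK receptors (middle) and target and feedback genes of β-catenin (bottom), 1 gene per line of the y axis. IGFBP4, LEF1, SP5 and CCND1 lie beyond 2-fold in both resistant lines, and TRABD2B lies at -1.41 and 0.92.

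The ligands and receptors that the antagonists act on were measured in the same way. Of 19 WNT ligands, 11 were tested, with 3 higher and 2 lower in CAL27/5FU, 4 higher and 4 lower in CAL27/OXA, and 0 higher and 2 lower in CAL27/OXA against CAL27/5FU. Of all tested genes, 8.46% and 6.72% were higher and lower in CAL27/5FU, and 6.54% and 9.28% in CAL27/OXA. In CAL27/OXA against CAL27/5FU the shares were 4.18% and 8.38%. With FPKM values and a pseudocount of 1 the ligands past 2-fold were fewer, with 0 higher and 1 lower in CAL27/5FU, 2 higher and 2 lower in CAL27/OXA, and 0 in either direction between the resistant lines. WNT4, the tested ligand that differed most from CAL27 in both lines, had 694 counts in CAL27 cells, 43 in CAL27/5FU cells and 15 in CAL27/OXA cells. Its log2 ratio to CAL27 was -3.96 (-4.50 to -3.57) in CAL27/5FU and -5.53 (-6.57 to -4.99) in CAL27/OXA. WNT3 had 304, 609 and 751 counts, with log2 ratios of 0.99 (0.79 to 1.20) and 1.11 (0.92 to 1.31), close to 2-fold in both. WNT7B, the ligand with the most counts in CAL27/OXA, had 1109 counts in CAL27 cells, 1817 in CAL27/5FU cells and 4057 in CAL27/OXA cells, and its log2 ratio in CAL27/OXA was 1.68 (1.59 to 1.78). WNT10A had 1356, 753 and 455 counts, with -1.76 (-1.92 to -1.61) in CAL27/OXA. Of 10 frizzled receptors, 8 were tested, and 1 was higher in CAL27/5FU and 2 in CAL27/OXA, with 0 lower in either. These counts depended on the setting, with 3 higher in CAL27/5FU under total counts and 0 higher in both lines with FPKM and a pseudocount of 1. FZD8, which was higher in both, rested on 2, 20 and 14 counts. Of 6 R-spondin and LGR genes, which strengthen WNT signalling, RSPO4 and LGR4 were tested. RSPO4, a secreted ligand, had 26, 89 and 23 counts, with a log2 ratio of 1.70 (1.12 to 2.46) in CAL27/5FU cells and of -0.34 in CAL27/OXA cells. With FPKM and a pseudocount of 1 its ratio in CAL27/5FU was 0.63, within 2-fold.

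The 5 genes most like DKK3 were sought among the 11541 genes averaging 100 counts or more, by the Euclidean distance between the pairs of log2 ratios to CAL27. With 3 libraries, this likeness rests on 2 ratios that share CAL27. APLN, which encodes the secreted peptide apelin, was the nearest at a distance of 0.19, with 266 counts in CAL27 cells, 41 in CAL27/5FU cells and 792 in CAL27/OXA cells. ZNF136, a zinc finger gene, followed at 0.33 with 151, 24 and 391 counts. CYFIP2, of the actin-regulating WAVE complex, lay at 0.63 (401, 93 and 926 counts), ZNF699, another zinc finger gene, at 0.66 (247, 51 and 526 counts) and IL1R2, the decoy receptor of interleukin-1, at 0.78 (84, 23 and 221 counts). All 5 were lowest in CAL27/5FU and highest in CAL27/OXA, which follows from how they were chosen.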

How the data were processed

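RNA-seq of CAL27, CAL27/5FU and CAL27/OXA cells was analysed with 1 labelled library per line. The authors deposited raw read counts and FPKM values per gene symbol. Libraries were made with a NEBNext Ultra kit, and Novogene ran the sequencing and the data analysis. The submitters' processing notes name CASAVA 1.8, HISAT2 2.0.5 and GRCh38. The counting tool, annotation and strandedness are not given in the sources used here. Each table has a further 3 columns of per-sample values that match no labelled sample, and these were left out of every step. The study's methods used DESeq2 with an adjusted p-value, and the number of libraries behind it is not stated in the sources used here. With the 1 labelled library per line used here, such a test was not possible.

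Counts were scaled with TMM factors (edgeR 4.0.16, R 4.3.3), with a prior count of 2 and a mean of at least 10 counts, and intervals were computed in scipy 1.17.1. The calculation was tested on simulated counts. Alternatives were DESeq2 1.42.0 size factors, total counts, upper quartile, other filters, prior counts and thresholds, and FPKM with pseudocounts of 1 and 0.1. Exon lengths of GENCODE 29 were added after seeing the data. The antagonists, the other gene lists and the tests were chosen with earlier results of these data known, and so were the sequences printed and the shorter motif. Named genes were the 10 antagonists, members of the listed groups, the 5 genes most like DKK3 and its 5 nearest tested neighbours on each side. Genes of these groups whose interval was not wholly past 2-fold, such as ZNRF3, MYC, NKD1, LRP6 and WNT3, were named after their values were seen.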

Additional observations from a re-analysis of the deposited data

Results flagged for a closer look

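Genes past 2-fold in opposite directions in the resistant lines were picked out. Only tested genes among the antagonists, the other gene and marker lists, the genes most like DKK3 and its chromosomal neighbours were searched. How many of all tested genes moved in this way was not counted. The difference between the lines was not tested because each line has 1 library. DKK3 had log2 ratios to CAL27 of -2.50 in CAL27/5FU and 1.5 in CAL27/OXA. APLN had -2.65 and 1.38, ZNF136 -2.57 and 1.17, CYFIP2 -2.09 and 1.01, and IL1R2 -1.79 and 1.19. These 4 genes were chosen for their likeness to DKK3, so their pattern is not independent of it. With FPKM values and a pseudocount of 1, ZNF136 (-0.76 and 0.80), CYFIP2 (-0.84 and 0.79) and IL1R2 (-0.78 and 0.94) were within 2-fold in both lines, and APLN stayed past it. CD14, from the leukocyte marker list, moved the other way, with 1.01 in CAL27/5FU and -1.09 in CAL27/OXA (637, 1290 and 341 counts in CAL27, CAL27/5FU and CAL27/OXA). Its ratio in CAL27/OXA was within 2-fold with total counts (-0.95), with FPKM and a pseudocount of 1 (-0.83) and with FPKM and 0.1 (-0.94).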

How the results depend on the processing

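DKK3 kept its direction and stayed past 2-fold under the 7 alternatives of scaling, prior count and FPKM in all 3 comparisons. Its log2 ratio moved beyond the counting interval in CAL27/5FU with FPKM and a pseudocount of 1 (-1.95) or 0.1 (-2.29), in CAL27/OXA with total counts (1.63) or FPKM and 0.1 (1.62), and between the resistant lines with FPKM and 1 (3.51). The number of antagonists past 2-fold went from 1 to 2 in CAL27/5FU with total counts and with both FPKM settings, where DKK1 joined DKK3, and to 2 without a filter, where SFRP1 joined. In CAL27/OXA it went to 3 with total counts (DKK1 and FRZB joined), to 2 with FPKM and 0.1 (DKK1) and without a filter (SFRP1), and to 0 at 4-fold. Total counts shifted the median over all tested genes by 0.17 in CAL27/5FU and 0.13 in CAL27/OXA (log2). All genes past 2-fold numbered 2076, 2163 and 1717 in the 3 comparisons, 3454, 3273 and 2842 without a filter, and 814, 849 and 602 with FPKM and 1. Of these genes, 55.7% and 41.3% were higher in CAL27/5FU and CAL27/OXA, and 67.2% and 51.1% with total counts. No paired analysis was possible because each line has 1 library. Depth limits FRZB, SFRP1 and SFRP5, and counting intervals do not cover variation between cultures.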
